A study of Mus musculus with 9 samples.

Results

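The genes described here carry a cell through mitosis: the cyclins and kinases that start it, the checkpoint that holds it, the proteins of kinetochore and spindle, and those that cut the daughter cells apart. The 40 genes were chosen by name, and a gene was measured by every probe set (a group of short oligonucleotides that reads 1 transcript) whose annotation carried that symbol alone. In this way 39 of the 40 genes were found, with 89 of the 45037 probe sets tested, and they stand among 18193 genes in all. Ccnb1, which encodes cyclin B1, had no probe set with that symbol alone in the annotation used here and is without values below.

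RNA came from adult olfactory bulb stem cells (aOBSCs), neural stem cells that were prepared from mouse olfactory bulb (CD1 or C57Bl/6) and grown as free-floating neurospheres in serum-free medium. FGF-2 and EGF (FGF-2/EGF), the mitogens that such cultures need for growth, were supplied at 20 ng/ml each daily (control, Ctr), at intervals of 2 days (C2) or at intervals of 4 days (C4), with 3 Affymetrix arrays per condition and 9 in all. Cultures had been kept on their schedule for 2 passages and were collected after 7 days, when the last addition lay 1 day back in the C2 condition and 3 days back in the C4 condition. For the array cultures the study names mice aged 7 and 15 months, but the strain and age behind each array were not given. Every condition received both factors, so there was no culture wholly without them, and neurospheres are mixtures of stem cells, progenitors and some differentiating cells.

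Values are log2 GCRMA values as deposited, on which a difference of 1 between conditions is a 2-fold change. A transcript was said to rise, to fall or to have passed when its adjusted p was under 0.05. The sources used here do not tie the 3 arrays of 1 condition to separate mice, so that a p-value speaks of the spread among these arrays, which may be partly technical. Within a condition the arrays correlated at 0.9985 to 0.9988 (Ctr), 0.9986 (C2) and 0.9977 to 0.9982 (C4) over all probe sets. Of 15 measured markers of stem and progenitor cells, 14 had a mean over 4, the level at or under which a probe set was taken as near the floor, and Prom1 did not. All 8 genes of microglia and all 9 genes of endothelial cells, pericytes and fibroblasts were at the floor, as were Dcx, Tubb3 and 6 further genes of neuroblasts and neurons.

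Mitotic genes are known to be transcribed together late in the cell cycle, so that their summed message follows the share of cells that are in G2 and mitosis. In quiescent cells the DREAM complex holds them down, and in dividing cells the same MuvB core, joined by B-MYB and later FOXM1, switches them on. The core binds the cell cycle genes homology region (CHR), a short element close to the start of transcription, and the factor NF-Y binds CCAAT boxes that often lie next to it. In neural stem cells the transcripts of Mki67, Top2a and their kin are in common use as markers of dividing cells.

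Promoters were taken from RefSeq (build GRCm38.p6), from 250 bases before to 50 bases after each start of transcription. The table held 34 promoters of 32 of the 40 genes, Ccnb1 among them, and none for the other 8. Those printed here are the promoters of 4 genes that changed (Mki67, Cdca8, Nusap1 and Anln), of Cdk1, which differed little, and of Cdc20, whose probe sets differed among themselves. Capitals mark CHR cores (TTTGAA or TTTAAA) and CCAAT boxes on either strand. The windows begin 200 bases before the start. Those of Cdk1 (chr10:69352883-69353112, minus strand), Cdca8 (chr4:124936888-124937117, minus strand), Cdc20 (chr4:118437314-118437543, minus strand) and Nusap1 (chr2:119618098-119618327, plus strand) end 30 bases after it, that of Anln (chr9:22389182-22389406, minus strand) ends 25 bases after it, and that of Mki67 (chr7:135716421-135716579, minus strand) holds 159 bases and ends before it. The start meant here is that of the promoter entry. For Mki67 it lies at 135716379, downstream of the gene's first annotated base at 135716450, and for Anln at 22389206, downstream of 22389211. No window was printed beyond 30 bases after the gene's first annotated base, which the window of Mki67 thus includes.
Cdk1: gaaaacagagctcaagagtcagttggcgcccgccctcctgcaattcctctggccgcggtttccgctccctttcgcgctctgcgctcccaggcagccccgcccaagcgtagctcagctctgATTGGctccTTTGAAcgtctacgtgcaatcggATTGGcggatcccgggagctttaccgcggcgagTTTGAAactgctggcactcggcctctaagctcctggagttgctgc
Mki67: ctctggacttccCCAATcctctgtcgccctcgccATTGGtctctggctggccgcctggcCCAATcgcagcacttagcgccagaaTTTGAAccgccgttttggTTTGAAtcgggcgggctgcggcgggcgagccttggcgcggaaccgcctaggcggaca
Cdc20: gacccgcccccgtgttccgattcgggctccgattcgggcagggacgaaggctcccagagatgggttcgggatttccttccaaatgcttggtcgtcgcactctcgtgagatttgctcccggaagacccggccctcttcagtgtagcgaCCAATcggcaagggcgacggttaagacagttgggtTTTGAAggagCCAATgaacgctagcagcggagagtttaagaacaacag
Cdca8: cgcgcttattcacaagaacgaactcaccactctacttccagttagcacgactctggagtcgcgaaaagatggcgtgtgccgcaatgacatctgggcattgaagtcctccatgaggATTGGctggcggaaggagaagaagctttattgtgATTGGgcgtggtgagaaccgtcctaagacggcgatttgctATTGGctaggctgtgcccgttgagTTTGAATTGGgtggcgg
Nusap1: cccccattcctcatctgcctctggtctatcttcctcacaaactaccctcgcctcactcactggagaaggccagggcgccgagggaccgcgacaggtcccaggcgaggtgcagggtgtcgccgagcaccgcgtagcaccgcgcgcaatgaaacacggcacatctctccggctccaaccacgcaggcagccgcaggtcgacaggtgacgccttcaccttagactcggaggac
Anln: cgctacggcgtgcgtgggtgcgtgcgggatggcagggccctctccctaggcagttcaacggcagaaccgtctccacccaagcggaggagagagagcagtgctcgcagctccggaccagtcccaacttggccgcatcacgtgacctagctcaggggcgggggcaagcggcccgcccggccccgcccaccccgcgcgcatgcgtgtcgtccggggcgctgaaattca

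A CHR core of the form TTTGAA stood in 26 of the 34 mitotic promoters (76.5%), against 17.9% of all 32851 promoters of that length in the table. The form TTTAAA, which reads the same on both strands, stood in 9 (26.5%), against 13.2% of all promoters, and at least 1 of both forms in 29 (85.3%), against 27.6%. A CCAAT box stood in 27 (79.4%), against 37.4% of all promoters, and a CHR core together with a CCAAT box in 25 (73.5%), against 10.7%. The window printed for Cdk1 held 2 CHR cores, at -71 and -15 from the start, each downstream of a CCAAT box, and that of Mki67 held 2 CHR cores and 3 CCAAT boxes. In Cdca8 the CHR core at 14 bases after the start shares a base with a CCAAT box. The 300 bases of Nusap1, and likewise those of Mad2l1 and Nuf2, held no match. Anln held 2 CHR cores, 22 and 29 bases after the start at and beyond the end of the printed window, and no CCAAT box. These letter matches describe the windows and were not measured as bound sites.

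**Figure D1:**
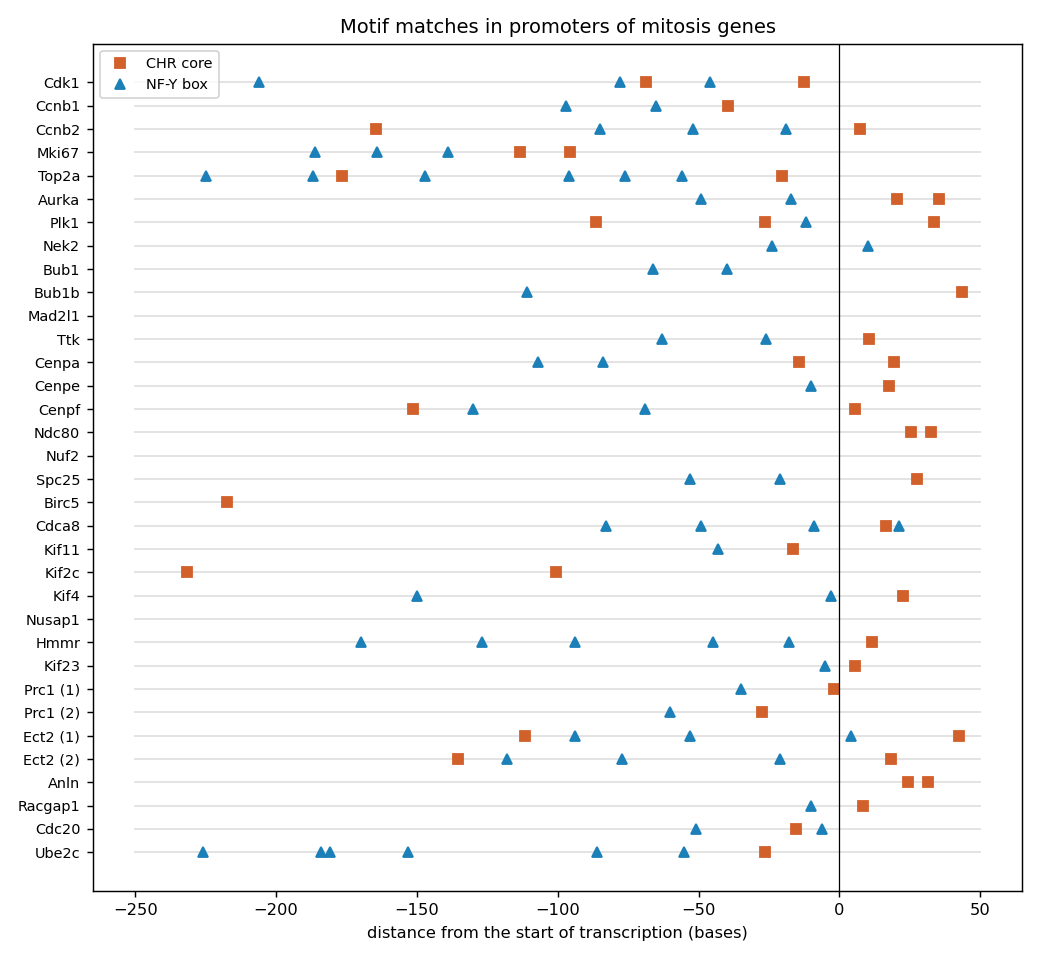
Each line is 1 of the 34 promoters of mitosis genes, with the distance from the start of transcription in bases on the x axis, squares for CHR cores and triangles for CCAAT (NF-Y) boxes. Of 107 matches, 80 have their middle within 100 bases of the start, and Mad2l1, Nuf2 and Nusap1 hold none.

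The first question was whether the mitotic transcripts were lower when FGF-2/EGF was added at longer intervals. Of those that passed, as many were higher as lower in each comparison. Between the C4 and Ctr conditions 2 genes were higher (Cdca8 and Nusap1), 2 were lower (Anln and Ect2) and 35 did not pass, with a median log2 difference of -0.04 over the 39 genes, against 0.00 over all 18193 genes and 0.05 over the 9347 genes with a mean over 4. Of all genes, 5.65% were higher and 3.55% lower in the C4 condition. All 39 mitosis genes had a mean over 4, and of the genes at such levels 17.5% passed in 1 direction or the other. Between C2 and Ctr cultures 1 mitosis gene was higher (Nusap1) and 1 lower (Anln), with a median of -0.02, while 1.67% of all genes were higher, 0.846% lower, and 4.78% of those with a mean over 4 passed. Between C4 and C2 cultures 2 were higher (Mki67 and Nusap1) and 2 lower (Ndc80 and Anln), with a median of 0.00, while 4.29% of all genes were higher, 3.49% lower, and 14.8% of those with a mean over 4 passed. In bulk RNA, fewer dividing cells and less mitotic message per dividing cell cannot be told apart. The comparisons of C4 and C2 with Ctr share the Ctr arrays. By the RefSeq annotation of GRCm38.p6 the genes that passed lie at chr9:22331214-22389211 (Anln), chr3:27097222-27154253 (Ect2), chr4:124918465-124936917 (Cdca8), chr2:119618298-119650165 (Nusap1), chr7:135689784-135716450 (Mki67) and chr17:71496100-71526857 (Ndc80).

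The differences were also small in size. None of the 39 genes differed by 1 or more in any comparison on its probe set of highest mean. Between C4 and Ctr few genes did so at all, 162 of 18193 and 146 of the 9347 with a mean over 4. With so small a share, finding none among 39 says little about the mitosis genes. The differences ran from -0.59 to 0.40 (C4 against Ctr), from -0.28 to 0.27 (C2 against Ctr) and from -0.37 to 0.44 (C4 against C2). The 95% interval of the difference lay wholly between -0.5 and 0.5 for 35 of the 39 genes between C4 and Ctr (89.7%, against 69.4% of the genes with a mean over 4), for 38 between C2 and Ctr (97.4%, against 80%) and for 36 between C4 and C2 (92.3%, against 72%). These shares depend on the width of the intervals as well as on the differences. The intervals of the mitosis genes were narrower, reaching a median of 0.16 to either side, against 0.19 for the genes with a mean over 4. At an unadjusted p under 0.05 the counts were 10 (25.6%), 11 (28.2%) and 12 (30.8%) in the same order, and the shares of the genes with a mean over 4 were 40.1%, 26.4% and 36.4%. The arrays of the conditions did not overlap for 12 genes (30.8%) in each comparison, and the shares of the genes with a mean over 4 were 42%, 31.8% and 39%. Taken array by array, the median shift of the 39 genes from their Ctr means lay between -0.04 and 0.01 on every one of the 9 arrays.

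**Figure D2:**
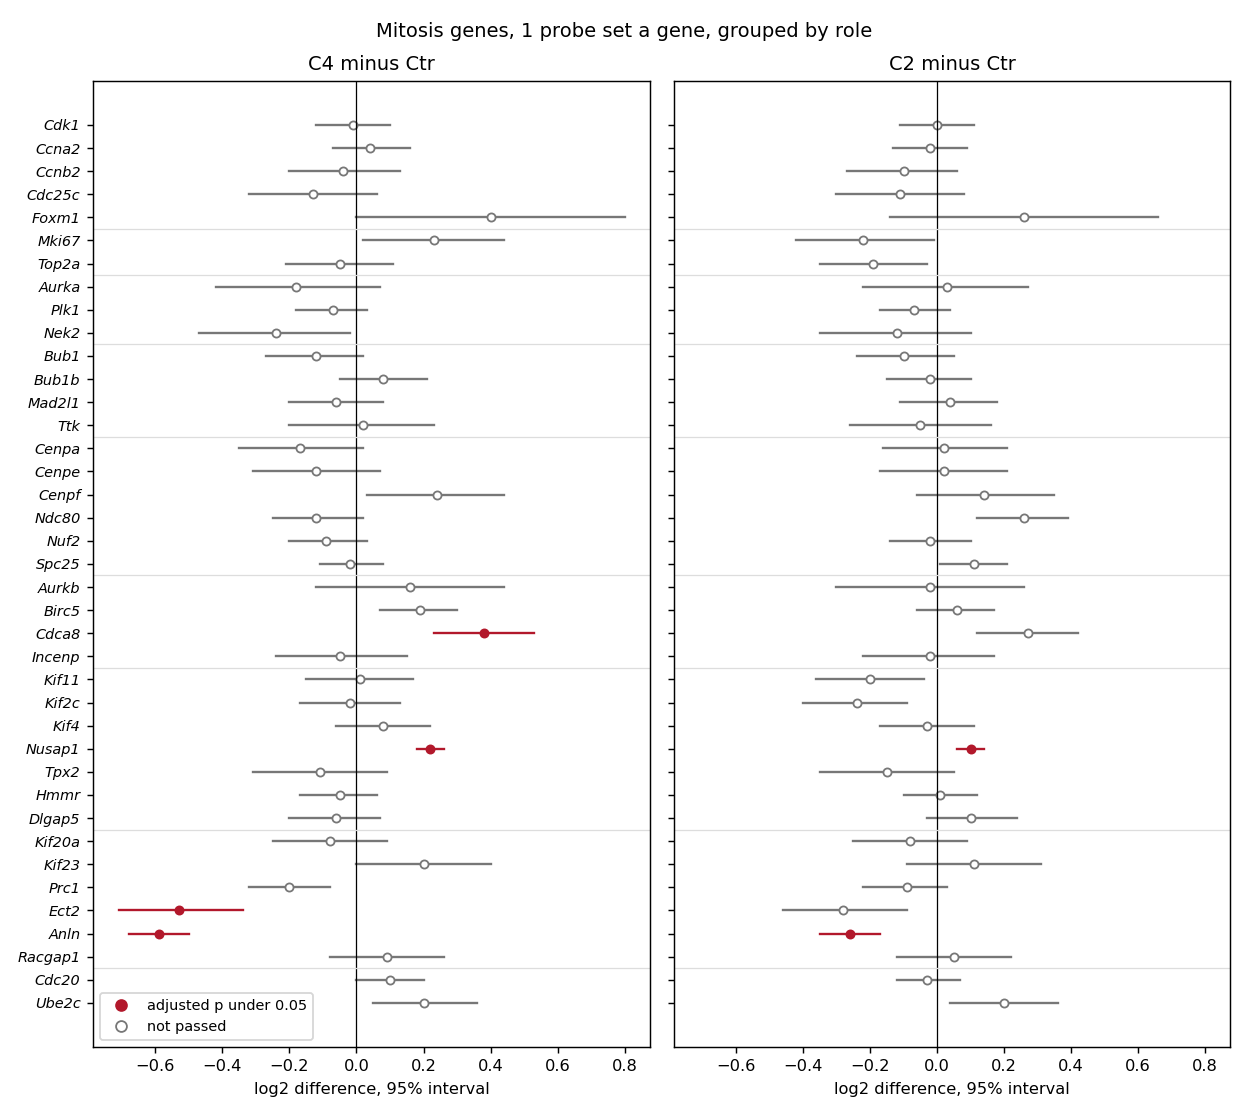
Points are log2 differences of the 39 mitosis genes in C4 (left) and C2 (right) against Ctr, with 95% intervals from limma, grouped by role from the cyclins at the top to the anaphase-promoting complex cofactors at the bottom. Filled red points passed (Cdca8, Nusap1, Ect2 and Anln in C4, Nusap1 and Anln in C2), and most of the others lie within 0.2 of 0.

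The kinase that drives entry into mitosis and its partners differed little. Cdk1, the mitotic kinase, stood at 10.05, 9.98 and 10.14 on the Ctr arrays, at 10.00, 10.07 and 10.10 on the C2 arrays and at 10.06, 10.08 and 10.00 on the C4 arrays. The 3 conditions overlapped fully, and the difference between C4 and Ctr was -0.01 with a 95% interval from -0.12 to 0.10. Ccna2, cyclin A2, differed by 0.04 (-0.07 to 0.16) and Ccnb2, cyclin B2, by -0.04 (-0.20 to 0.13) in the same comparison. Cdc25c, a phosphatase that activates CDK1, differed by -0.13 (-0.32 to 0.06). Foxm1, the activator of the late mitotic program, stood at 5.0, 4.51 and 4.76 in Ctr, at 5.02, 5.05 and 5.0 in C2 and at 5.0, 5.0 and 5.48 in C4. Its difference between C4 and Ctr, 0.40, was the highest of the 39, but it had an interval from 0.00 to 0.80 (adjusted p = 0.315), and 1 C4 array stood above all others. This probe set had a mean of 4.98, the lowest of the 39. The other Foxm1 probe sets were near the floor, with means of 3.20, 2.27 and 2.27. None of these 5 genes passed in any comparison.

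Mki67, the gene of the Ki-67 antigen that coats mitotic chromosomes, was lowest at the middle interval. It stood at 10.05, 10.00 and 10.18 in Ctr, at 9.79, 9.83 and 9.96 in C2 and at 10.22, 10.22 and 10.47 in C4. Every C2 array was thus below every Ctr array, and every C4 array above both. Mki67 was higher in C4 than in C2 by 0.44 ± 0.087 (SE, n = 3 each, adjusted p = 0.0364), but leaving out any 1 of the 9 arrays took the adjusted p over 0.05 (0.052 to 0.126). Against Ctr it differed by 0.23 in C4 (adjusted p = 0.259) and by -0.22 in C2 (adjusted p = 0.461), and neither passed. Top2a, the topoisomerase that untangles sister chromatids, stood at 10.40, 10.40 and 10.48 in Ctr, at 10.29, 10.18 and 10.23 in C2 and at 10.33, 10.29 and 10.52 in C4. Its C2 arrays were below its Ctr arrays, by 0.19 on average on the log2 scale (adjusted p = 0.343), and its C4 arrays overlapped with both.

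**Figure D3:**
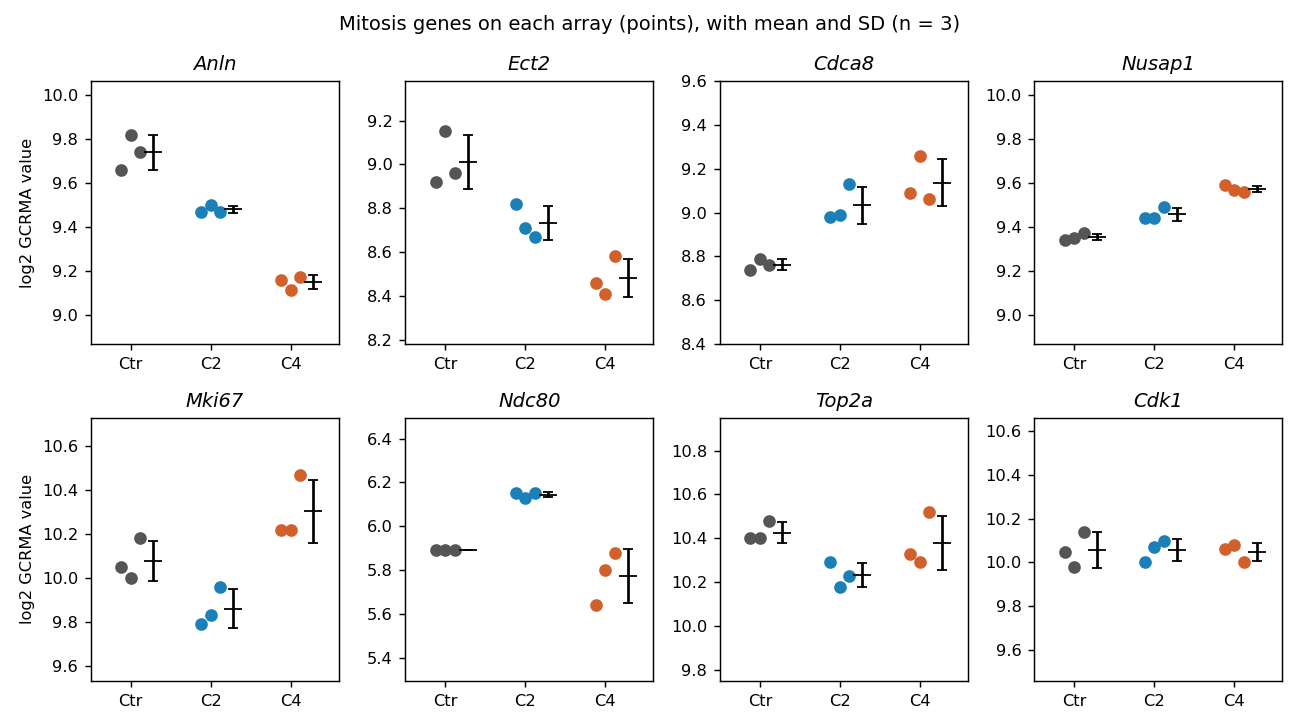
Log2 GCRMA values of 8 mitosis genes on each of the 9 arrays (points, 3 per condition, Ctr, C2 and C4 from left to right), with the mean and SD beside them and y axes that span the same number of log2 units. Anln and Ect2 step down and Nusap1 steps up with the interval, Cdca8 is higher in C2 and C4 than in Ctr, Mki67 is lowest and Ndc80 highest in C2, and Cdk1 lies at 9.98 to 10.14 on all arrays.

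Kinases of centrosome and spindle did not pass in any comparison. Nek2, which separates the centrosomes, stood at 6.53, 6.55 and 6.29 in Ctr, at 6.23, 6.48 and 6.29 in C2 and at 6.19, 6.16 and 6.29 in C4. One Ctr array had the same value as 1 C4 array, and the difference between C4 and Ctr was -0.24 (-0.47 to -0.02, adjusted p = 0.271). Aurka, the Aurora kinase of the spindle poles, differed by -0.18 (-0.42 to 0.07) and Plk1, the polo kinase needed at most steps of mitosis, by -0.07 (-0.18 to 0.03).

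The spindle checkpoint, which delays anaphase until every chromosome is attached, did not pass either. Bub1, its scaffold kinase, stood at 8.38, 8.53 and 8.62 in Ctr, at 8.38, 8.44 and 8.42 in C2 and at 8.41, 8.42 and 8.34 in C4. The conditions overlapped, with a difference between C4 and Ctr of -0.12 (-0.27 to 0.02). Bub1b, Mad2l1 and Ttk, which encode BUBR1, MAD2 and the MPS1 kinase, differed by 0.08, -0.06 and 0.02. A second Bub1b probe set, with a mean of 6.73 against 7.28 for the first, differed by 0.26 (0.07 to 0.45) between C4 and Ctr. Its C4 arrays were above its Ctr arrays, and it did not pass (adjusted p = 0.143).

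At the kinetochore, Ndc80 was highest at the middle interval. Ndc80, a microtubule-binding subunit of the complex that carries its name, stood at 5.89 on all 3 Ctr arrays, at 6.15, 6.13 and 6.15 in C2 and at 5.64, 5.80 and 5.88 in C4. No condition overlapped with another. Its level was lower in C4 than in C2 by a log2 difference of -0.37 ± 0.055 (SE, adjusted p = 0.0128), which held without any 1 array except C2 replicate 1 (adjusted p = 0.0525) and C2 replicate 2 (adjusted p = 0.0505). It differed by 0.26 between C2 and Ctr (adjusted p = 0.0964) and by -0.12 between C4 and Ctr (adjusted p = 0.41). Values that repeat exactly on 3 or more arrays, as Ndc80 does in Ctr, occurred in 14 of the 39 genes (35.9%) and in 29.1% of the genes with a mean over 4. The other subunits of the complex, Nuf2 and Spc25, differed by -0.09 and -0.02 between C4 and Ctr, and Cenpa, the histone variant of centromeres, by -0.17. Cenpe, a motor that brings chromosomes to the spindle equator, and Cenpf, a large protein of the outer kinetochore, differed by -0.12 and 0.24. On their probe sets of highest mean these 5 did not pass in any comparison.

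In the chromosomal passenger complex, which corrects wrong attachments and later guides cytokinesis, Cdca8 rose. Cdca8, the gene of the subunit borealin, stood at 8.74, 8.79 and 8.76 in Ctr, at 8.98, 8.99 and 9.13 in C2 and at 9.09, 9.26 and 9.06 in C4. All C4 and all C2 arrays were above all Ctr arrays. It was higher in C4 than in Ctr by 0.38 ± 0.063 (SE, 1.3-fold, adjusted p = 0.0181), but not past the threshold without Ctr replicate 1, 2 or 3 (adjusted p = 0.0676, 0.0593 and 0.0613), and it differed by 0.27 between C2 and Ctr (adjusted p = 0.119). Both other Cdca8 probe sets with a mean over 4 differed by 0.17 and 0.07 between C4 and Ctr and did not pass, and the call was lost when probe sets were averaged or those marked _s_at left out (adjusted p up to 0.881 over all alternatives). Birc5, the subunit survivin, stood at 8.68, 8.68 and 8.85 in Ctr, at 8.77, 8.79 and 8.82 in C2 and at 8.92, 8.95 and 8.89 in C4. Its C4 arrays were above all other arrays, with a difference of 0.19 (0.07 to 0.30) from Ctr that did not pass (adjusted p = 0.079). The kinase Aurkb and the scaffold Incenp differed by 0.16 and -0.05 between C4 and Ctr. A second Aurkb probe set, with a mean of 6.86 against 7.22 for the first, went the other way. It differed from Ctr by -0.23 in C4 and by -0.30 in C2, without overlap, and did not pass (adjusted p = 0.438 and 0.408).

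Of the 7 spindle motors and spindle proteins, Nusap1 rose in each comparison by a small amount. Nusap1, which bundles spindle microtubules near chromosomes, stood at 9.34, 9.35 and 9.37 in Ctr, at 9.44, 9.44 and 9.49 in C2 and at 9.59, 9.57 and 9.56 in C4. The conditions formed a staircase with no overlap, and the arrays of 1 condition lay close together. The level was higher in C4 than in Ctr by 0.22 ± 0.017 (SE, 1.17-fold, adjusted p = 9.65e-04), in C2 than in Ctr by 0.10 ± 0.017 (adjusted p = 0.0441) and in C4 than in C2 by 0.12 ± 0.017 (adjusted p = 0.0114). The difference between C2 and Ctr no longer passed when any 1 of the 9 arrays was left out (adjusted p = 0.0702 to 0.149), and both others still passed. The second Nusap1 probe set was near the floor. The call of C4 against Ctr was lost when both were averaged, with the robust option of limma and with arrays shifted to 1 median (adjusted p up to 0.989).

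Kif2c, a motor that takes microtubules apart at centromeres, stood at 7.81, 7.89 and 7.86 in Ctr, at 7.50, 7.72 and 7.60 in C2 and at 7.87, 7.88 and 7.74 in C4. Its C2 arrays were below all others, with a difference of -0.24 between C2 and Ctr (adjusted p = 0.169) and of 0.22 between C4 and C2 (adjusted p = 0.138). Both other Kif2c probe sets with a mean over 4 differed by -0.09 and 0.07 between C2 and Ctr and by 0.23 and -0.07 between C4 and C2. Kif11, the motor that pushes the spindle poles apart, had the same order, with -0.20 between C2 and Ctr (adjusted p = 0.323) and 0.21 between C4 and C2 (adjusted p = 0.192), while both other Kif11 probe sets differed by -0.04 and -0.02 between C2 and Ctr and by 0.14 each between C4 and C2. Kif4, Tpx2, Hmmr and Dlgap5 differed by 0.08, -0.11, -0.05 and -0.06 between C4 and Ctr and did not pass. The other Hmmr probe sets with a mean over 4 differed by -0.05, -0.19 and -0.27 and did not pass either (adjusted p = 0.787, 0.0975 and 0.069).

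Both decreases between C4 and Ctr were in genes of cytokinesis. Anln, the gene of anillin, which links actin, myosin and septins in the contractile ring, stood at 9.66, 9.82 and 9.74 in Ctr, at 9.47, 9.50 and 9.47 in C2 and at 9.16, 9.11 and 9.17 in C4. The conditions stepped down without overlap. Anln was lower in C4 than in Ctr by a log2 difference of -0.59 ± 0.039 (SE, 0.663-fold, adjusted p = 5.88e-04), in C2 than in Ctr by -0.26 ± 0.039 (adjusted p = 0.0322) and in C4 than in C2 by -0.33 ± 0.039 (adjusted p = 0.0053). Leaving out any 1 array kept the call of C4 against both others, while the call of C2 against Ctr was kept in 2 of 9 such fits (adjusted p up to 0.111), namely without Ctr replicate 1 or Ctr replicate 2. The call of C4 against Ctr was lost (adjusted p = 0.0617) when the probe sets of the gene were averaged. A second Anln probe set, with values between 4.96 and 5.50, differed by 0.04 between C4 and Ctr and did not follow the first.

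Ect2, the exchange factor that activates RhoA where the cell will be cut, stood at 8.92, 9.15 and 8.96 in Ctr, at 8.82, 8.71 and 8.67 in C2 and at 8.46, 8.41 and 8.58 in C4. These arrays, too, stepped down without overlap. The level was lower in C4 than in Ctr by a log2 difference of -0.53 ± 0.077 (SE, 0.694-fold, adjusted p = 0.0107), and this passed without each of the 9 arrays (adjusted p = 0.0193 to 0.0428), but not in 2 of the 18 alternatives, 1 of them a fit to the arrays of both conditions alone (adjusted p up to 0.0592 over all alternatives). It differed by -0.28 between C2 and Ctr (adjusted p = 0.198) and by -0.25 between C4 and C2 (adjusted p = 0.169), which did not pass. Prc1, which bundles the microtubules of the central spindle, stood at 8.48, 8.57 and 8.53 in Ctr, at 8.44, 8.44 and 8.43 in C2 and at 8.32, 8.23 and 8.44 in C4. Its C4 and C2 arrays were below its Ctr arrays, with a difference of -0.20 (-0.32 to -0.08) between C4 and Ctr that did not pass (adjusted p = 0.0856). A second Prc1 probe set, with a mean of 8.35 against 8.43, differed by 0.02 between C2 and Ctr, with overlap. Between C4 and Ctr it differed by -0.06, without overlap (adjusted p = 0.22). Racgap1 and Kif23, which together form centralspindlin, the partner of Ect2, differed by 0.09 and 0.20, and the motor Kif20a by -0.08, and they did not pass.

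Cofactors of the anaphase-promoting complex, the ubiquitin ligase that ends mitosis, did not pass on their probe sets of highest mean. Ube2c, its ubiquitin-conjugating enzyme, stood at 10.28, 10.13 and 10.25 in Ctr, at 10.32, 10.45 and 10.50 in C2 and at 10.40, 10.51 and 10.36 in C4. All C4 and all C2 arrays were above all Ctr arrays, with a difference of 0.20 in each (adjusted p = 0.17 for C4 and 0.297 for C2). Cdc20, its activator, stood at 10.82, 10.82 and 10.80 in Ctr, at 10.82, 10.72 and 10.82 in C2 and at 10.97, 10.83 and 10.92 in C4 on its probe set of highest mean, a difference of 0.10 between C4 and Ctr (adjusted p = 0.318). A second Cdc20 probe set stood at 9.59, 9.50 and 9.51 in Ctr, at 9.55, 9.48 and 9.58 in C2 and at 9.88, 9.89 and 9.80 in C4. On this probe set the C4 arrays were above all others and the difference passed, at 0.33 against Ctr (adjusted p = 0.00555) and 0.32 against C2 (adjusted p = 0.00647). The third Cdc20 probe set differed by 0.00 between C4 and Ctr.

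The probe sets of a gene thus did not always give the same answer. Of the 89 probe sets, 65 had a mean over 4, 24 were at or under it, and 10 had 1 constant value on all arrays. Between C4 and Ctr 3 of the 89 rose and 3 fell, while 6.29% of all probe sets passed in 1 direction or the other. Between C2 and Ctr 1 rose and 1 fell (1.7% of all passed), and between C4 and C2 3 rose and 2 fell (5.25% of all passed). The probe sets that passed beside those above were the Cdc20 probe set and 1 of Cenpe. For 20 genes at least 2 probe sets had a mean over 4, which gave 26 further probe sets. Between C4 and Ctr, 19 of the 26 had the sign of the probe set of highest mean and 17 lay within 0.2 of it, with a median gap of 0.14. Between C2 and Ctr 13 had its sign and 20 lay within 0.2 (median gap 0.11), and between C4 and C2 19 had its sign and 20 lay within 0.2 (median gap 0.11).

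The widest gaps were in genes with a second probe set of low values. The second Cenpe probe set stood at 5.88, 5.74 and 5.16 in Ctr, at 5.29, 5.22 and 5.16 in C2 and at 4.81, 4.69 and 4.24 in C4, and it was lower in C4 than in Ctr by a log2 difference of -1.01 (adjusted p = 0.0485), while the first differed by -0.12. The C4 arrays of this second probe set were below all others. Cenpf and Kif23 differed by 0.24 and 0.20 on the first probe set and by -0.60 and -0.47 on the second, and none of these passed. Which probe set reads the transcript better was not tested.

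**Figure D4:**
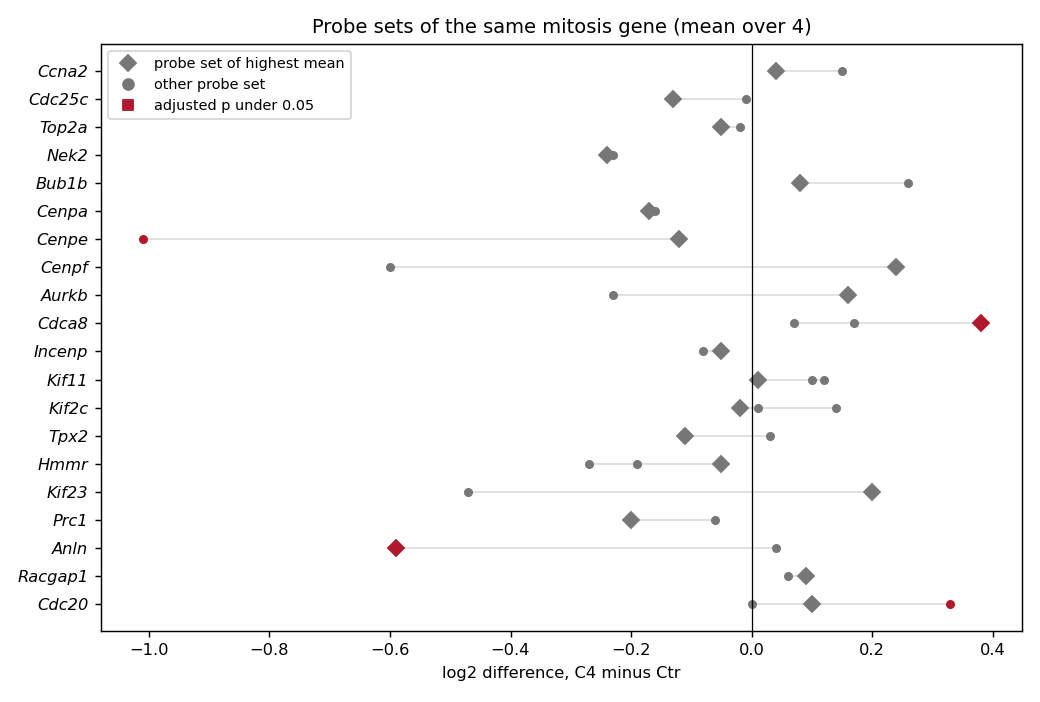
Log2 differences between C4 and Ctr for the 20 mitosis genes with at least 2 probe sets with a mean over 4: diamonds are the probe sets of highest mean, circles the others, and red marks those that passed. Most genes have their points within 0.2 of each other, while those of Cenpe, Cenpf, Kif23 and Anln lie farthest apart.

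Of a list of 78 other genes of G2 and mitosis, 76 were measured and 71 had a mean over 4. Between C4 and Ctr 4 rose and 6 fell, with a median difference of 0.00, while 17.5% of all genes at such levels passed. Between C2 and Ctr 1 passed (Ska2, a kinetochore protein, lower by a log2 difference of -0.27, adjusted p = 0.0486), against 4.78%, and between C4 and C2 4 rose and 2 fell, against 14.8%. The smallest p-values between C4 and Ctr were those of Stmn1, a microtubule destabiliser (0.62), Tubb5, a beta tubulin (0.25), Kif18a, a motor that aligns chromosomes (-0.59), and Depdc1a (-0.89). Stmn1 stood at 10.94, 10.88 and 10.93 in Ctr, at 10.92, 10.90 and 10.96 in C2 and at 11.53, 11.55 and 11.50 in C4. Only its C4 arrays stood apart. Depdc1a stood at 8.40, 8.57 and 8.19 in Ctr, at 8.12, 7.85 and 7.83 in C2 and at 7.29, 7.61 and 7.59 in C4, which is a descent without overlap. Stmn1 and Tubb5 are also transcribed in cells that have stopped dividing, among them young neurons. Whether such cells had a part in these values was not tested.

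Of the genes of DNA replication, which act in the phase before, 50 were measured and 47 had a mean over 4. Between C4 and Ctr 6 rose and 2 fell, with a median of 0.17, while 5.65% of all genes were higher, 3.55% lower, and 17.5% of those with a mean over 4 passed. Of the list 1 passed between C2 and Ctr (Mcm4, a helicase subunit, lower by a log2 difference of -0.61, adjusted p = 0.0286), with a median of -0.06 (4.78% of the genes with a mean over 4 passed), and 12 rose and 1 fell between C4 and C2, with a median of 0.18 (14.8% passed). Pcna, the sliding clamp of DNA polymerases, stood at 12.15, 12.21 and 12.31 in Ctr, at 12.29, 12.24 and 12.31 in C2 and at 12.70, 12.73 and 12.68 in C4. Its C4 arrays were above all others, with a difference of 0.48 from Ctr (adjusted p = 0.00132). Mcm7 (0.22) and Lig1 (0.37), a helicase subunit and a DNA ligase, rose as well, and Cdt1, which loads the helicase onto origins, fell (-0.37). The medians of the replication and mitosis lists were not tested against each other.

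Of 32 genes of G1 regulation and of the DREAM proteins, 27 had a mean over 4, and 5 rose and 6 fell between C4 and Ctr, with a median of -0.01, while 17.5% of all genes with a mean over 4 passed. Btg2, an antiproliferative gene, stood at 7.55, 7.69 and 7.69 in Ctr, at 7.20, 7.01 and 7.30 in C2 and at 8.45, 8.41 and 8.57 in C4, so that it was highest in C4 (0.84 against Ctr, adjusted p = 0.00263) and lowest in C2. Cdkn2b and Cdkn2c, inhibitors of CDK4 and CDK6, rose by 0.47 and 0.46 and Ccng2, an atypical cyclin, fell (-0.61). In C2 against Ctr only Cdkn2b rose (0.58, adjusted p = 0.00626) and only Ccng2 fell (-0.72, adjusted p = 0.00304), against 4.78%. Between C4 and C2 2 rose and 3 fell, against 14.8%.

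**Figure D5:**
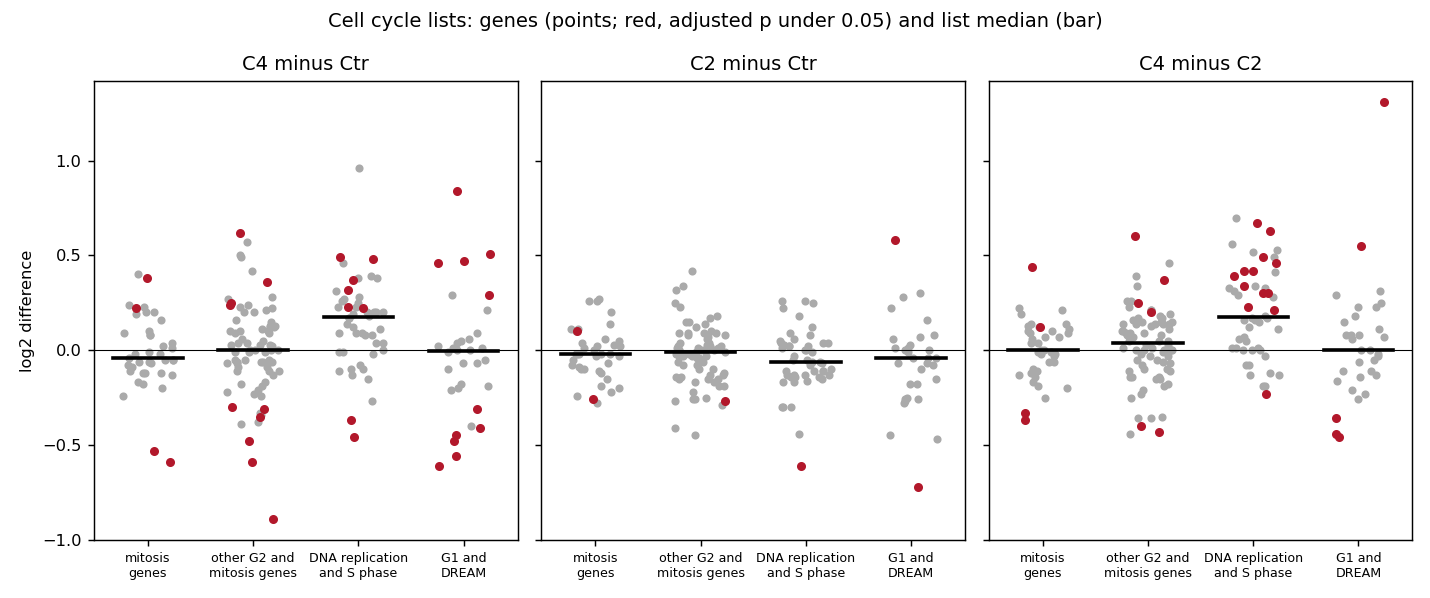
Log2 differences of the genes of 4 cell cycle lists (points, red where the adjusted p is under 0.05, with the list median as a bar) for C4 against Ctr, C2 against Ctr and C4 against C2. The medians of the mitosis genes lie at -0.04, -0.02 and 0.00 from left to right, and those of the replication genes at 0.17, -0.06 and 0.18.

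Some markers of other cell types also differed between the conditions, where 17.5% of all genes with a mean over 4 passed between C4 and Ctr. Of 8 astrocyte genes, 7 had a mean over 4 and Gfap was at the floor, and the sum of their values on the linear scale was 18450 to 18845 in Ctr, 17335 to 17997 in C2 and 21068 to 21750 in C4, with 4 of 8 higher in C4 than in Ctr. Of 8 measured genes of the oligodendrocyte lineage, 4 had a mean over 4 and all 4 were higher in C4 than in Ctr, while Sox10, Mbp, Mog and Mag were at the floor, and their sum was 1989 to 2169 in Ctr, 1672 to 1739 in C2 and 2878 to 3127 in C4. The sums of astrocyte and oligodendrocyte genes were thus highest in C4 and lowest in C2 with no overlap. Between C2 and Ctr the single astrocyte genes went both ways, from -0.76 to 0.57, and 1 passed, lower. Of the oligodendrocyte genes 2 were lower and none higher there, while 4.78% of all genes with a mean over 4 passed. Of 10 neuroblast and neuron genes, 2 had a mean over 4, none was higher and 1 was lower in C4 than in Ctr, and their sums overlapped between C4 and Ctr (5791 to 5826 in Ctr, 5240 to 5594 in C2 and 5514 to 6253 in C4). Of the 15 stem and progenitor genes 6 were higher and 1 lower in C4 than in Ctr. Their sum was 73944 to 79264 in Ctr, 71190 to 73604 in C2 and 75643 to 79616 in C4. It was thus also lowest in C2 without overlap, while C4 and Ctr overlapped. The part of these cell types in the values of the mitosis genes was not tested.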

How the data were processed

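RNA of aOBSC neurospheres of the Ctr, C2 and C4 conditions had been hybridised to Affymetrix Mouse Genome arrays, 3 per condition. The authors processed the arrays with GCRMA (version not given in the sources used here), which corrects background by probe sequence, quantile normalises the arrays and summarises each probe set, and the deposited log2 values were used unchanged. Quantile normalisation equalises the probe intensities of the arrays, so a shift shared by all genes cannot be seen. Small offsets remained in the summarised values, whose upper quartile was 6.47 to 6.52 in Ctr, 6.50 to 6.53 in C2 and 6.48 to 6.60 in C4. Arrays have no depth in reads, and precision is limited by their number.

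Of 45101 probe sets, 64 controls were left out and 45037 tested without a filter. According to the platform annotation 34945 carried 1 symbol, 932 several and 9160 none, and the symbols with 1 stand for 18193 genes. The 3 comparisons came from 1 fit of all 9 arrays (limma 3.58.1, R 4.3.3) with condition as the factor and an empirical Bayes prior that followed intensity (6 residual and 0.574 prior degrees of freedom), adjusted by the Benjamini-Hochberg method over all 45037 probe sets, with calls at an adjusted p under 0.05. The probe set with the highest mean stood for its gene. The same procedure was tested on simulated data.

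The 40 genes and the other lists were written from general knowledge and chosen with earlier results of these data known, so no list was tested. All 39 measured genes were named, with values on every array for Mki67, Top2a, Cdk1, the members of each role group with the smallest p and every gene that passed. Of the other cell cycle lists up to 4 genes with the smallest p were named, and Ska2 and Mcm4 were added after their values were seen because each was the only gene of its list to pass between C2 and Ctr. Alternatives were the variance prior, the arrays in the fit, a filter, the probe set used, further normalisation, a replicate block and leaving out each array. What the replicate numbers stand for was not given, and the main fit did not treat the arrays as paired.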

Additional observations from a re-analysis of the deposited data

How the results depend on the processing

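Of the 39 genes and 3 comparisons under 18 alternatives, 2019 results kept their side of the threshold, 60 lost it, 26 gained it, and 1 was reversed: Nusap1 was lower in C4 than in C2 by a log2 difference of -0.06 (adjusted p = 1) when all probe sets of a gene were averaged, which brings in a probe set near the floor. Most of the 2019 were differences that passed neither in the main fit nor in the alternative. The call of Anln between C4 and Ctr held in 17 of 18, that of Ect2 in 16, Nusap1 in 15 and Cdca8 in 10, with adjusted p-values of 3.04e-05 to 0.0617, 4.76e-04 to 0.0592, 9.65e-04 to 0.989 and 0.00292 to 0.881 in that order. Between C2 and Ctr the call of Anln held in 7 of 18 and that of Nusap1 in 2. Between C4 and C2 the call of Anln held in 17, those of Ndc80 and Nusap1 in 14 each and that of Mki67 in 7. The number of genes called between C4 and Ctr was 4, against 7 with a filter on dim probe sets, where Birc5, Prc1 and Ube2c were added. With the mean of all probe sets of a gene it was 5, but of the first 4 only Ect2 stayed. Cenpa (-0.11), Cenpe (-0.56) and Hmmr (-0.13) were then called lower and Cdc20 (0.14) higher. The number was 2 with the robust option of limma or with a fit to the arrays of both conditions alone, and 3 to 5 without 1 array. Between C2 and Ctr it was 2, against 1 with arrays shifted to 1 median or with the arrays of both conditions alone, 0 with the mean of probe sets, the robust option or a replicate block, and 0 to 1 without 1 array. With the arrays of both conditions alone Nusap1 and Anln were both lost, and the gene called was Ndc80 (0.26, adjusted p = 0.0141). Ndc80 was also called there after a further quantile normalisation (adjusted p = 0.0226) and without C4 replicate 1 (adjusted p = 0.016). Between C4 and C2 the number of genes called was 4, against 1 with the robust option or with the arrays of both conditions alone, and 2 to 4 without 1 array. The low values there are C2 replicate 1 and C2 replicate 2, without either of which 2 were called. What caused these changes was not tested.

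The median difference of the mitosis genes between C4 and Ctr (-0.04) was -0.09 with arrays shifted to 1 median, -0.07 after a further quantile normalisation, -0.02 without _x_at and _s_at probe sets and -0.05 to -0.02 without 1 array. Between C2 and Ctr (-0.02) it was -0.05 under both normalisations and -0.03 to 0.00 without 1 array. Between C4 and C2 (0.00) it was -0.02 and 0.02 under the same normalisations and -0.02 to 0.03 without 1 array. With the replicate number as a block, 3, 0 and 4 genes were called in C4 against Ctr, C2 against Ctr and C4 against C2. Between C4 and Ctr this lost Cdca8 and Ect2 (adjusted p = 0.0592) and added Mki67 (0.23, adjusted p = 0.0347), and between C2 and Ctr it lost Nusap1 and Anln. The deviations of the 9 same-numbered pairs correlated at -0.04 to 0.13, over 0.1 in 2 of them. With 3 arrays per condition such weak values cannot tell whether arrays of 1 number share a culture or a batch. The sources used here do not say. The values of genes that GCRMA leaves near the floor bound what can be seen: 24 of the 89 probe sets gave no usable level.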
